A study of Mus musculus with 3 samples.

Results

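Müller glia, the radial glial cells that span the neural retina, accounted for 568 of the 5400 droplets kept from 3 single-cell RNA libraries of mouse retina: 170 droplets at 3 months (Young), 206 at 12 months (Adult) and 192 at 23 months (Old). They were selected on measured transcripts, counted as unique molecular identifiers (UMIs), each of which tags 1 captured RNA molecule. A droplet was included when it held 500 to 6000 genes, had 1 to 20% of its UMIs from mitochondrial genes, and carried a UMI of at least 5 of 9 Müller markers and of at most 3 of 8 endothelial markers. The Müller markers were Rlbp1, Slc1a3, Aqp4, Dkk3, Kcnj10, Car14, Crym, Spc25 and Gpr37, and the endothelial markers were Pecam1, Cldn5, Cdh5, Flt1, Egfl7, Ptprb, Tie1 and Esam. Because these 17 genes chose the cells, their levels are given as a description only.

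All mice were C57BL/6JRj animals with no named mutation or treatment, so age was the only labelled difference. At each age, retinas from a pair of animals were dissociated. Their cells were then pooled and passed through autoMACS columns to enrich cells carrying CD31, the endothelial surface protein encoded by Pecam1. Each age is therefore 1 library of pooled animals, and the values below have no replicate check. No test across animals was possible, and all intervals are exact 95% intervals that cover counting error only. Müller glia were not the target of the enrichment, and their Pecam1 level was 2.55, 1.56 and 1.23 CPM in the Young, Adult and Old library. CPM is the count of a gene scaled to 1e6 UMIs summed over the Müller glia of 1 library.

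Müller glia are the main support cells of the vertebrate retina and reach from the inner limiting membrane to the photoreceptor layer. They take up glutamate from synapses and convert it to glutamine, buffer potassium and water through Kir4.1 and aquaporin-4, supply retinoids to cones, and contact the retinal vessels. In injured retina they enter gliosis, a reactive state marked by intermediate filaments and acute-phase genes. Their identity depends on Notch signalling and on transcription factors shared with retinal progenitors.

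The levels of the rule markers were raised by the selection itself and do not test the label. Rlbp1, which encodes the retinaldehyde-binding protein CRALBP, had a UMI in 168 of 170 Young, 204 of 206 Adult and 184 of 192 Old Müller glia, at 3240, 3491 and 3274 CPM, against 28.0, 20.3 and 66.9 CPM in all other kept droplets. Aqp4 (aquaporin-4) stood at 1328, 1333 and 1339 CPM, and Slc1a3 (the glutamate transporter GLAST) at 1163, 1067 and 1014 CPM, each under 11 CPM elsewhere. Crym, a thyroid hormone-binding protein, stood at 627, 676 and 662 CPM, and the orphan receptor Gpr37 at 863, 933 and 981 CPM. Spc25, a kinetochore subunit that is abundant in these non-dividing cells, stood at 1598, 1302 and 1199 CPM. The least often detected marker was Kcnj10 (Kir4.1), with a UMI in 72.9%, 73.8% and 63.5% of the droplets.

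Of the 8 endothelial markers, 7 were near 0 in Müller glia and 1 was not. Flt1, which encodes VEGF receptor 1, had UMIs in 159, 185 and 171 Müller glia at 702, 628 and 640 CPM, whereas Cldn5, the tight junction protein claudin-5, reached at most 15.4 CPM and Cdh5, the endothelial cadherin, at most 1.56 CPM. Other kept droplets held 2410, 2060 and 2236 CPM of Flt1 and 2750, 2408 and 2802 CPM of Cldn5. The limit of 3 endothelial markers holds the other genes low by selection. Most members carried exactly 1 endothelial marker (129, 152 and 134 droplets).

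All 9 Müller markers were present in 102 Young, 132 Adult and 91 Old members. Just inside the threshold, with 5 markers, were 9, 6 and 18 droplets with median depths of 2403, 1725.5 and 2064.5 UMIs. Just outside, with 4 markers, were 12, 10 and 18 droplets with median depths of 8218, 6487 and 1911.5 UMIs. Glul, the glutamine synthetase of Müller glia that the rule did not use, stood at 3880, 2392 and 4254 CPM in the first set and at 3602, 822 and 2837 CPM in the second, compared with 11131, 11314 and 11019 CPM in droplets with all 9 markers. Only 3, 2 and 1 droplets met the Müller criterion but had 4 or more endothelial markers. A further 35, 58 and 82 met both marker criteria but failed the limits on gene number or mitochondrial content.

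The libraries were similar in depth. The Müller glia held 1565850, 1919640 and 1624494 UMIs, with medians of 9171, 9521.5 and 8240 UMIs and 3099, 3172 and 2984.5 genes per droplet, and single droplets ranged from 809 to 22929 UMIs. The libraries shared at most 3 of their barcodes pairwise and 0 Müller barcodes. Müller glia made up 9.92% (8.55 to 11.4), 10.4% (9.12 to 11.9) and 11.2% (9.75 to 12.8) of kept droplets, and these intervals overlap. Rod photoreceptor RNA differed between the libraries: 10 rod markers summed to 964 CPM in Young, 2027 in Adult and 2168 in Old Müller glia, a ratio of 2.25 (2.12 to 2.39) for Old over Young, with 0 of the 10 at 0 in any library, and 35, 61 and 35 of the droplets held 3 or more of them. In barcodes with under 500 genes the same ratio was 1.69 (1.58 to 1.81). Smooth muscle, amacrine and horizontal cell marker lists each summed to at most 4.17 CPM. The astrocyte list, 5 markers without Gfap, summed to 115, 144 and 145 CPM, against 35.5, 8.70 and 9.27 CPM in all other kept droplets. In each library 0 Müller droplets held 3 or more of these markers. In the lists of 4 other cell types most UMIs came from 1 droplet: microglia (374 of 404 UMIs, Young), retinal pigment epithelium (244 of 263, Adult), bipolar cell (299 of 451, Adult, and 352 of 418, Old) and B cell (49 of 52, Old). Pericyte markers summed to 100, 180 and 96.0 CPM, with 143 of 346 Adult UMIs in 1 droplet, and cone markers to 153, 320 and 37.6 CPM, with 194 of 240 Young and 274 of 614 Adult UMIs in 1 droplet each. Among the settings tried, the 5 Young, 7 Adult and 3 Old members with 4 or more markers of another class were left out, as was, for each gene, its leading droplet.

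The genes that took the most UMIs in Müller glia outside mitochondrial and ribosomal protein genes described a glial transcriptome. Apoe, the lipid carrier secreted by glia, stood at 13047, 14405 and 14413 CPM. Glul stood at 10129, 10197 and 9812 CPM and had a UMI in every one of the 568 droplets. Clu (clusterin, an extracellular chaperone), Dbi (the acyl-CoA binding protein, an endozepine of glia), Mgarp, Fth1 (ferritin heavy chain) and Eno1 (enolase) followed with Rlbp1 among the 15 highest, as did Bsg (basigin, a partner of lactate transporters), Rtn4 (Nogo), Jun and Ubb (ubiquitin). The nuclear RNA Malat1 led at 82953, 80287 and 79273 CPM, and Gm42418 and AY036118, which overlap ribosomal RNA sequence, were also among them. Mgarp was not particular to these cells, since bipolar droplets held 4290, 4284 and 5032 CPM against 3895, 4059 and 4203 CPM here.

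A different set separated Müller glia from the rest of the suspension. The ranking covered 1283 genes outside the rule and the mitochondrial genome with at least 100 CPM in Müller glia of each library. It used the smallest ratio, in any library, of CPM plus 1 to that of all other kept droplets. The leading genes were Prss56, Slitrk2, Shisal2b, Lhx2, Frzb, Abca8a, Luzp2, Il33, Col9a1 and Necab2 (chosen after their values were seen, as a description). Slitrk2, a synaptic adhesion protein, stood at 280, 252 and 280 CPM against 1.15, 0.959 and 1.54 CPM elsewhere. Lhx2, a homeobox factor required for Müller glial development, stood at 453, 414 and 373 CPM against 3.79, 3.98 and 4.03. Frzb, a secreted Wnt antagonist, stood at 109, 140 and 143 CPM against at most 1.12. Il33, an alarmin cytokine stored in nuclei of retinal glia, stood at 413, 481 and 524 CPM against at most 7.52. Hes5, a Notch effector, had rank 12 by this measure, and ranks can depend on the added 1 CPM.

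The age comparison asked which transcripts of Müller glia differed between libraries from animals of 3, 12 and 23 months. Most did not differ by a large factor: among the 6486 genes with at least 100 UMIs over the 3 libraries, the median log2 ratio was 0.03 for both Old over Young and Adult over Young. A ratio of at least 1.5 was found for 328 genes in Old over Young, or 5.06% of those tested, and a ratio of 1/1.5 or less for 141 genes, or 2.17%. The corresponding counts for Adult over Young were 224 genes (3.45%) and 163 genes (2.51%). These shares are the background for the gene lists below. Both contrasts share the Young library, so a value that is unusual in it moves them together.

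By list medians, retinoid handling and interferon-stimulated genes lay highest in Old Müller glia, and most functional lists lay near the median of all genes. The 9 retinoid genes that passed the UMI minimum, of 14 listed, had a median log2 ratio of 0.53 for Old over Young and 0.46 for Adult over Young, and all 9 were above 1 in Old over Young. The 17 interferon-stimulated genes that passed, of 28 listed, had medians of 0.47 and 0.23, and 16 of 17 were above 1. Lists of complement (4 genes, 0.38 and 0.27), metallothioneins (3 genes, 0.34 and -0.37), antigen presentation (11 genes, 0.24 and 0.11) and glycolysis and glycogen (21 genes, 0.17 and 0.10) followed. In all other kept droplets the same genes had Old over Young medians of 0.61 (interferon), 1.76 (metallothioneins), 0.56 (antigen presentation) and 0.26 (glycolysis), above those of Müller glia. They were 0.22 for retinoid and 0.26 for complement genes, below those of Müller glia. Glutamate and amino acid handling (10 genes, 0.24 and 0.05) had 6 genes above and 4 below 1 in Old over Young, a sum ratio of 0.993, and a median of -0.026 when 4 Müller markers sufficed. The list of glial transcription factors (18 genes, 0.03), gliosis (14 genes, -0.01), Notch and Wnt components (10 genes, -0.03), potassium, water and pH handling (7 genes, -0.01) and heat shock (10 genes, -0.08) lay close to the all-gene median. The same held for trophic and angiogenic factors (8 genes, 0.14), antioxidant genes (14 genes, 0.09), iron genes (7 genes, 0.10), immediate early genes (16 genes, 0.02), apical junction and matrix genes (14 genes, -0.08), lipid genes (17 genes, -0.08), circadian genes (14 genes, -0.05), ribosomal protein genes (78 genes, -0.05), and the dorsal (4 genes, 0.08) and ventral (2 genes, 0.04) lists. The cell cycle and kinetochore list (4 genes, 0.24) lay higher and the senescence and cytokine list (5 genes, -0.36) lower, each on few genes. For complement the sum over all listed genes went the other way, at 306 CPM in Young and 198 in Old, and the 92 C1qa UMIs of that sum lay in 1 Young droplet. The 13 mitochondrially encoded genes had a median of -0.15, and all 13 were below 1. All other kept droplets had a similar median for them, at -0.13.

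**Figure D1:**
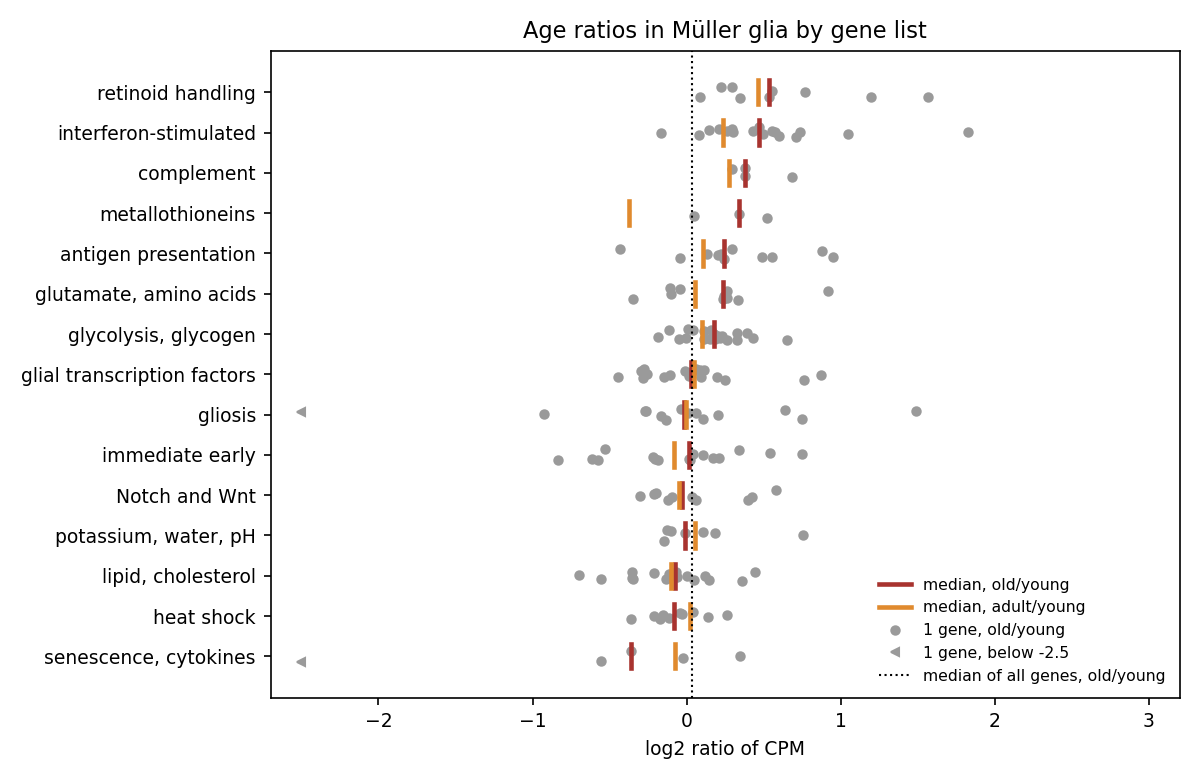
Age ratios of single genes in Müller glia, grouped by gene list (rows), on a log2 scale of CPM. Grey points are Old over Young for each gene with at least 100 UMIs, dark red ticks are the list medians for Old over Young, orange ticks those for Adult over Young, and the dotted line is the median of all 6486 genes. The retinoid and interferon-stimulated medians, 0.53 and 0.47, lie farthest to the right, and the triangles mark Lcn2 and Igfbp5, which lie below the plotted range.

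Many interferon-stimulated genes are switched on after type I interferon binds its receptor, through a promoter element called ISRE. In Old Müller glia 5 of the 17 genes were at least 1.5-fold higher than in Young, a share to be read against the 5.06% of all genes: Ifi27, Lgals3bp, Ddx58, Ifit1 and Xaf1. Xaf1 was past 1.5 under 8 of 12 settings and Ifit1 under 10, and without the leading droplet of each gene 7 genes were. The summed level of all listed genes was 1072 CPM in Young, 1364 in Adult and 1651 in Old, a ratio of 1.54 (1.45 to 1.64) for Old over Young. Ifi27 gave much of this difference, and without it, a sum chosen after the values were seen, the levels were 970 CPM in Young, 1139 in Adult and 1289 in Old, a ratio of 1.33. In Old over Young 0 of the 17 were 1.5-fold lower, and in Adult over Young 3 were higher and 1 was lower, against 3.45% and 2.51% of all genes.

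Ifi27, an interferon-inducible mitochondrial membrane protein (ENSMUSG00000064215, GRCm38 chromosome 12, 103434211 to 103440239, plus strand), showed the largest difference of the list. Müller glia held 160 UMIs or 102 CPM (87.0 to 119) in Young, 432 UMIs or 225 CPM (204 to 247) in Adult, and 588 UMIs or 362 CPM (333 to 392) in Old. The 3 intervals do not overlap, and the Adult library lay between the others. The ratio was 3.54 (2.97 to 4.25) for Old over Young and 2.2 (1.83 to 2.66) for Adult over Young. The Old over Young ratio lay between 3.22 and 4.28 under 12 alternative settings, of which 4.28 is that of droplets with an Aldh1a1 UMI, and was 2.56 in droplets without one. The Adult over Young ratio was 2.74 (2.16 to 3.50) with an Aldh1a1 UMI and 1.44 (1.05 to 1.97) without one. The difference was spread over many cells: 65, 116 and 128 droplets had a UMI, which is 38.2%, 56.3% and 66.7% of them, and no droplet held more than 29 UMIs. After thinning each droplet to 2000 UMIs the shares were 14.0% (9.10 to 20.3), 27.0% (21.0 to 33.8) and 42.1% (34.6 to 49.9). Bipolar droplets, at a median depth of 6303, 7106 and 6278 UMIs, gave thinned shares of 0%, 1.16% and 2.70%, so the Müller values were above that background.

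The level of Ifi27 in endothelial droplets was 215, 263 and 251 CPM, so that Müller glia held less of it than endothelial cells in the Young library and more in the Old one. The endothelial ratio was 1.17 (1.10 to 1.25) for Old over Young, and its interval did not overlap the one in Müller glia. In Old over Young, Ifi27 was the only gene of the list whose Müller interval lay above the endothelial one, and for 6 others, Bst2, Ifih1, Ifit3, Ifit3b, Ifitm3 and Isg15, the endothelial interval lay higher. In Adult over Young the Müller interval lay higher for 3 genes, Bst2, Ifi27 and Ifitm3, and the endothelial one for 0, so that Bst2 and Ifitm3 stood on opposite sides in the 2 contrasts. The ubiquitin-like modifier Isg15 stood at 87.5, 92.7 and 92.3 CPM in Müller glia, a ratio of 1.06 (0.832 to 1.34), against 274, 342 and 658 CPM in endothelial droplets, a ratio of 2.40 (2.28 to 2.52). Without the droplet that held most Isg15 UMIs in each library, the Müller ratio was 1.41 (1.08 to 1.86), since 43 of the 137 Young UMIs lay in 1 droplet. Ifit3, an antiviral protein that binds foreign RNA together with Ifit1, had ratios of 1.23 (0.987 to 1.53) and 2.68 (2.47 to 2.92) in turn.

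**Figure D2:**
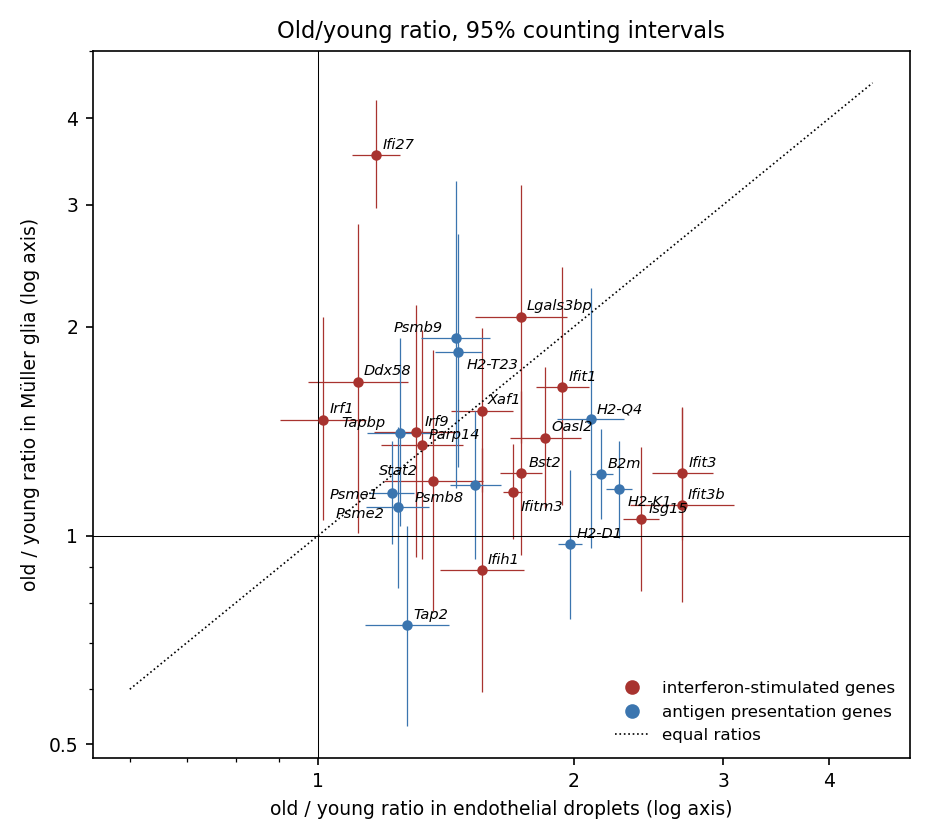
Old over Young ratio of CPM in Müller glia (vertical, log axis) against the same ratio in endothelial droplets (horizontal, log axis) for interferon-stimulated genes (red) and antigen presentation genes (blue) reported here with at least 100 UMIs in Müller glia; bars are exact 95% counting intervals. Ifi27 lies far above the line of equal ratios, at 3.54 against 1.17, and Isg15, Ifit3, B2m and H2-K1 lie below it.

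The remaining genes of the list had smaller Old over Young ratios. Lgals3bp, a secreted glycoprotein, stood at 21.7, 33.9 and 44.9 CPM, with a ratio of 2.07 (1.36 to 3.21), and had a UMI in 30, 41 and 54 droplets. Ddx58, which encodes the RNA sensor RIG-I, was counted 26, 41 and 45 times, with a ratio of 1.67 (1.01 to 2.82) whose lower bound lies close to 1. Xaf1, a pro-apoptotic interferon target, stood at 58.1, 77.1 and 88.0 CPM, with a ratio of 1.51 (1.16 to 1.99). Ifit1 was counted 43, 62 and 73 times (27.5, 32.3 and 44.9 CPM), a ratio of 1.64 (1.11 to 2.44). Plscr2, a phospholipid scramblase outside the list, stood at 17.9, 25.5 and 46.2 CPM, a ratio of 2.58 (1.65 to 4.14).

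Genes of antigen presentation by MHC class I were mostly above 1 in Old over Young Müller glia, and 8 of the 11 that passed had larger ratios in endothelial droplets, 4 of them with intervals apart. H2-T23 and Psmb9 were at least 1.5-fold higher in Old over Young and 0 were 1.5-fold lower. H2-T23, the nonclassical class I molecule Qa-1, was counted 43, 78 and 82 times (27.5, 40.6 and 50.5 CPM), a ratio of 1.84 (1.26 to 2.72) that was past 1.5 under 10 of 12 settings and 1.13 after thinning. Psmb9, an immunoproteasome subunit, stood at 16, 27.1 and 30.8 CPM, a ratio of 1.93 (1.17 to 3.25). By contrast B2m, the class I light chain, stood at 203, 199 and 249 CPM in Müller glia, a ratio of 1.23 (1.06 to 1.43), and at 716, 859 and 1544 CPM in endothelial droplets, a ratio of 2.16 (2.09 to 2.22). In Old over Young the endothelial intervals of B2m, H2-D1, H2-K1 and Tap2 lay above those of Müller glia, and 0 genes showed the reverse. In Adult over Young this held for B2m and H2-D1, and Psme1 showed the reverse. Of the class II genes, Cd74, the invariant chain, was counted 0, 1 and 42 times, and 41 of the Old UMIs lay in 1 droplet.

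The promoters of the 2 genes that carry an ISRE core and lay past 1.5-fold are shown with that of Xaf1, one of 4 genes (Xaf1, Lgals3bp, Ddx58 and Psmb9) that lay past it without such a match. Each window is the 250 bases upstream of the RefSeq start on GRCm38.p6, written 5′ to 3′ along the gene, and capitals mark the letters GAAA, any 2 bases and GAAA again, or the reverse complement, which is the core of the ISRE. Ifit1 (chr19:34640639-34640888, plus strand) held 2 matches that end 94 and 75 bases upstream of the start, H2-T23 (chr17:36032702-36032951, minus strand) held 1 at 114 bases, and Xaf1 (chr11:72301379-72301628, plus strand) held 0. Ifi27 had no entry in the promoter table and was not searched.
Ifit1: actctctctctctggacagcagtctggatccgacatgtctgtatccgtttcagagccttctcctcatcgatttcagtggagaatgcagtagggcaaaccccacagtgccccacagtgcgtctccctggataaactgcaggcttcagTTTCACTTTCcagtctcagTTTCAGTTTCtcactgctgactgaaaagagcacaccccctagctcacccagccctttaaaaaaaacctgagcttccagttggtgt
H2-T23: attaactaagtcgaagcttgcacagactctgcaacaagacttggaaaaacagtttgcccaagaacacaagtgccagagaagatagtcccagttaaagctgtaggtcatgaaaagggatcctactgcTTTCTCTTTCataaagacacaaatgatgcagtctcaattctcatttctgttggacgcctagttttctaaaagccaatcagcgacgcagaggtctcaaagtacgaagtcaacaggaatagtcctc
Xaf1: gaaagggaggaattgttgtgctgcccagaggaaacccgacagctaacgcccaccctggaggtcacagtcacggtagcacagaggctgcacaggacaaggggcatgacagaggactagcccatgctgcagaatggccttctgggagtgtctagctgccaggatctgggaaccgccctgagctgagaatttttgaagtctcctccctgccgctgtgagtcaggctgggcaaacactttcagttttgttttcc
This 10-letter pattern, searched on both strands, was present in 978 of 32851 promoter windows of the same length (2.98%), in 8 of 21 interferon-list promoters and in 2 of 15 antigen presentation promoters. The 8 were those of Stat2, Isg15, Ifit1, Ifit3, Ifit3b, Rsad2, Bst2 and Oas1a. A match is a stretch of letters, not a measured binding site, and the genes with a match included Isg15, whose ratio was 1.06.

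Retinoid handling had the highest list median in Old over Young with all droplets, but without the leading droplet of each gene its median was 0.43, below the 0.55 of the interferon list, 0.50 of metallothioneins and 0.44 of complement. In each contrast with Young, 3 of its 9 genes were at least 1.5-fold higher. Müller glia make retinoic acid from retinaldehyde through aldehyde dehydrogenases, degrade it through CYP26 enzymes and bind it in CRABP proteins. Crabp1, a cytosolic retinoic acid-binding protein, stood at 19.2, 71.4 and 56.6 CPM, a ratio of 2.96 (1.94 to 4.62) in Old and 3.73 (2.49 to 5.73) in Adult, and had a UMI in 9 Young, 38 Adult and 32 Old droplets. Cyp26b1 stood at 37.0, 74.0 and 53.6 CPM, a ratio of 2.0 (1.46 to 2.76) in Adult and 1.45 (1.03 to 2.05) in Old. Cyp26a1 was counted 32, 54 and 76 times in only 11, 17 and 17 droplets. Its ratio of 2.29 (1.5 to 3.58) became 0.719 when droplets were thinned to equal depth, so its direction depended on that setting. Aldh1a1, a retinaldehyde dehydrogenase, stood at 306, 375 and 358 CPM, a ratio of 1.17 (1.03 to 1.32). Rgr, a retinal G protein-coupled receptor, had a ratio of 1.70 (1.07 to 2.76) on 30, 46 and 53 UMIs, which became 0.599 after thinning. In the other droplets of the Old library Rgr stood at 295 CPM against 24.3 in Young, and the part of RNA from those droplets in the Müller value was not tested.

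Of 18 glial factors that passed, Hes5 and Id1 were at least 1.5-fold higher in Old and 0 were lower. After thinning the Old over Young ratios were 1.36 and 1.43, and under 12 settings Hes5 was past 1.5 in 10 in Old over Young and in 6 in Adult over Young, and Id1 in 11 in Old over Young. Hes5, the Notch-induced repressor that keeps glia from becoming neurons (ENSMUSG00000048001, chromosome 4, 154960923 to 154962371, plus strand), had a level of 373 CPM (343 to 404) in the Young, 564 CPM (531 to 598) in the Adult and 632 CPM (594 to 671) in the Old library. The Young interval lay below both others. The ratio was 1.69 (1.53 to 1.88) in Old and 1.51 (1.37 to 1.67) in Adult, while Hes5 stood at 7.26 CPM or less in all other droplets. The share of droplets with a Hes5 UMI did not follow the level, at 56.5%, 70.4% and 60.4%, or 39.0%, 43.9% and 37.4% after thinning, against at most 1.16% of bipolar droplets.

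Id1, an inhibitor of basic helix-loop-helix factors induced by BMP signals, stood at 119 (102 to 137), 259 (237 to 283) and 217 (195 to 241) CPM, with ratios to Young of 2.18 (1.84 to 2.60) and 1.83 (1.53 to 2.2) for Adult and Old. Endothelial droplets held far more Id1, at 1279, 1345 and 1667 CPM, with ratios of 1.05 (1.02 to 1.08) and 1.30 (1.27 to 1.34). Hes1, the second Notch effector, stood at 1307, 1592 and 1554 CPM, a ratio of 1.19 (1.12 to 1.26) that became 0.957 after thinning, and the receptor Notch1 at 169, 142 and 145 CPM, a ratio of 0.862 (0.720 to 1.03). Sox9 (1.06, 0.968 to 1.17) and Pax6 (1.15, 1.06 to 1.24), which hold retinal glia and progenitors in their state, differed little. Lhx2 had a ratio of 0.823 (0.737 to 0.918). The Hes5 promoter is shown because Hes5 had the largest ratio among the Notch components.
Hes5: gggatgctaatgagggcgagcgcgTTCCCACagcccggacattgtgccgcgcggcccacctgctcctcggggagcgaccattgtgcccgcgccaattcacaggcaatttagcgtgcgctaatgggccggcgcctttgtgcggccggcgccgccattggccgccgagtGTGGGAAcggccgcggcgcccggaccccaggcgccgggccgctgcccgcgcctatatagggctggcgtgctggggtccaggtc
The window is chr4:154960673-154960922 on GRCm38.p6, plus strand, from RefSeq, and capitals mark GTGGGAA or its reverse complement, the core letters bound by the Notch cofactor RBPJ. It held 2 matches, at 219 and 76 bases upstream of the start, and this pattern was present in 1779 of 32851 windows (5.42%).

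Among genes outside these lists, Wnt6, Nupr1, Prss56 and Dcn were higher in Old Müller glia, and Wnt6 and Prss56 were nearly absent from all other droplets. Wnt6, a secreted Wnt ligand (ENSMUSG00000033227, chromosome 1, 74771892 to 74785322, plus strand), was counted 22, 41 and 82 times, or 14.0 (8.80 to 21.3), 21.4 (15.3 to 29.0) and 50.5 (40.1 to 62.7) CPM. The Old interval lay above both others. Its ratio was 3.59 (2.22 to 6.04) in Old and 1.52 (0.885 to 2.68) in Adult. It was spread over 17, 32 and 51 droplets with at most 4 UMIs each, and all other kept droplets held at most 0.172 CPM. After thinning, 3.05%, 5.10% and 8.19% of Müller glia had a UMI, with overlapping intervals.

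Nupr1, a stress-induced chromatin protein, stood at 147 (129 to 167), 267 (245 to 291) and 338 (310 to 367) CPM, with 3 intervals that do not overlap. Its ratios were 1.82 (1.55 to 2.13) in Adult and 2.30 (1.97 to 2.70) in Old. In endothelial droplets it stood at 13.5, 14.4 and 13.9 CPM, although all other droplets of the Adult library together held 320 CPM against 20.5 in Young. A UMI was found in 83, 147 and 132 Müller glia, and in at most 0.662% of bipolar droplets. Prss56, a serine protease of Müller glia linked to eye growth, stood at 221 (198 to 246), 433 (404 to 463) and 441 (409 to 474) CPM, with ratios of 1.96 (1.73 to 2.23) and 1.99 (1.75 to 2.27). Only 49, 76 and 63 droplets carried it, and it was named after its values were seen. Dcn, the proteoglycan decorin, had the largest Old over Young ratio of all ranked genes, at 8.94 (4.89 to 15), 37.0 (28.9 to 46.7) and 65.9 (54.0 to 79.6) CPM, or 7.37 (4.2 to 13.9) in Old and 4.14 (2.31 to 7.95) in Adult. It was counted only 14 times in Young, and 10, 29 and 38 droplets carried it. Under 12 settings its ratio ran from 6.64 to 23.0 in Old and from 3.63 to 8.37 in Adult. The other droplets moved the opposite way, at 26.1, 9.96 and 6.18 CPM.

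**Figure D3:**
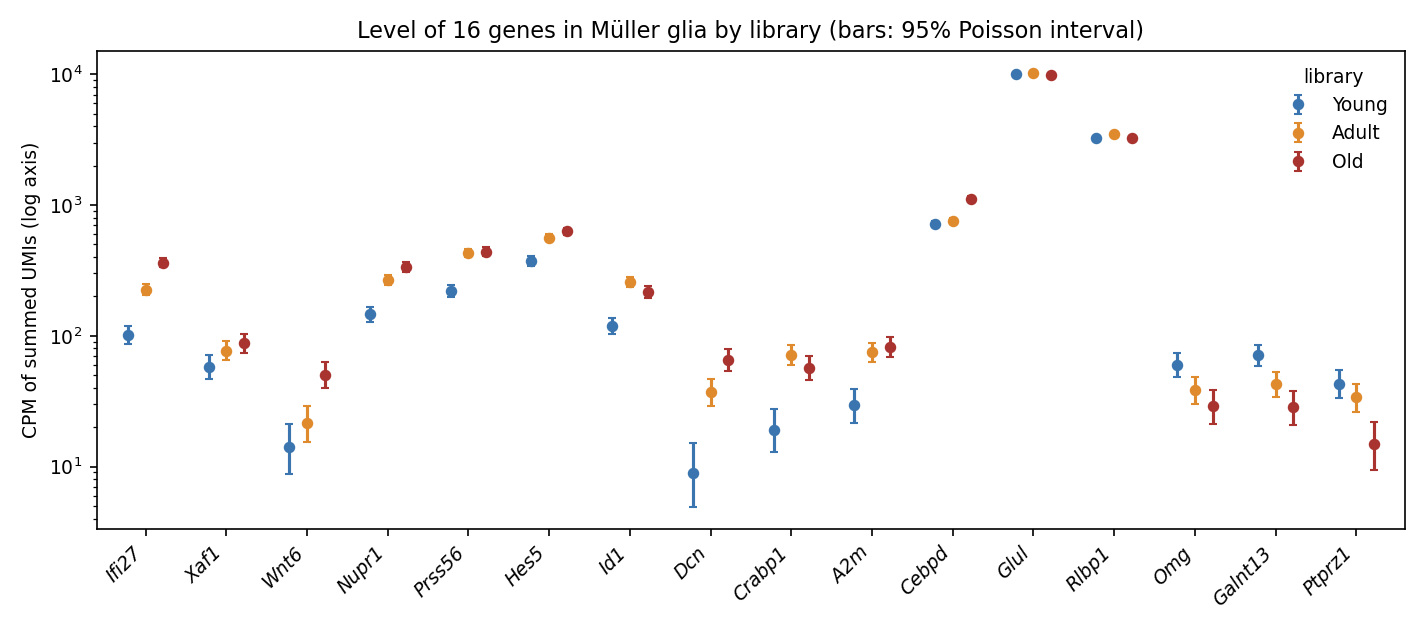
Levels of 16 genes in Müller glia of the Young (blue), Adult (orange) and Old (red) library, as CPM of summed UMIs on a log axis, with exact 95% Poisson intervals as bars. Ifi27, Wnt6, Nupr1, Hes5 and Dcn are highest in the Old library, Id1 and Crabp1 in the Adult library, Glul and Rlbp1 hardly differ, and Omg, Galnt13 and Ptprz1 are lowest in the Old library.

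The gliosis list had a median close to that of all genes, with 3 genes at least 1.5-fold higher in Old, 2 lower, and 9 of 14 within that range. Vim, the intermediate filament vimentin, stood at 1003, 1078 and 1009 CPM, a ratio of 1.01 (0.938 to 1.08). Gfap, the filament that marks reactive Müller glia, was counted 53, 31 and 29 times in 8, 10 and 9 droplets, which counts droplets with a UMI and not cells expressing it. Its ratio was 0.527 (0.323 to 0.845), and 1.06 when every droplet was weighted equally. Cp (ceruloplasmin, a ferroxidase) had a ratio of 0.831 (0.780 to 0.884).

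The 3 higher genes of the list were Cebpd, Socs3 and A2m. Cebpd, an acute-phase transcription factor, stood at 717 (675 to 760), 756 (717 to 796) and 1114 (1063 to 1166) CPM, a ratio of 1.55 (1.44 to 1.68) in Old but 1.05 (0.975 to 1.14) in Adult. Its Old interval lay above both others. Socs3, the feedback inhibitor of JAK and STAT3 signalling, stood at 190, 235 and 319 CPM, a ratio of 1.68 (1.45 to 1.94). A2m, a secreted protease inhibitor, stood at 29.4, 75 and 82.5 CPM, a ratio of 2.81 (1.99 to 4.02). In Old, 44 of its 134 UMIs lay in 1 droplet, and without the leading droplet of each library the ratio was 2.33 (1.57 to 3.52). Stat3 itself had 0.974 as its ratio. Of 4 complement genes that passed, Serping1, the C1 inhibitor, was 1.5-fold higher, at 44.1, 74.0 and 70.8 CPM, a ratio of 1.61 (1.18 to 2.2).

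Among genes of the classical Müller functions, Glul, Apoe and Clu differed little. Glul had a ratio of 0.969 (0.948 to 0.990) in Old, Apoe 1.10 (1.08 to 1.13) and Clu 1.09 (1.05 to 1.13). Slc1a2, the glutamate transporter GLT-1, stood at 534, 629 and 641 CPM, a ratio of 1.20 (1.10 to 1.32), and Got1, an aspartate aminotransferase, was counted 23, 61 and 45 times, a ratio of 1.89 (1.12 to 3.27), although rod and bipolar droplets held more of it. The rule markers are given as a description only. Spc25 had a ratio of 0.750 (0.707 to 0.796), Slc1a3 0.872 (0.815 to 0.932), Kcnj10 0.858 (0.741 to 0.994) and Aqp4 1.01 (0.95 to 1.07). Vegfa, the vascular growth factor that Müller glia release, was highest in Adult, at 159, 244 and 188 CPM, with a ratio of 1.53 (1.31 to 1.80) in Adult and 1.18 (0.995 to 1.40) in Old. Of 21 glycolysis and glycogen genes, only Pygm, the muscle-type glycogen phosphorylase, reached 1.5-fold, at 24.3, 26.0 and 38.2 CPM, a ratio of 1.57 (1.03 to 2.42) that was past 1.5 under 9 of 12 settings and 1.13 after thinning.

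Further genes of these functions differed less than 1.3-fold in Old over Young. Car2, the cytosolic carbonic anhydrase, stood at 2083, 2056 and 1938 CPM, a ratio of 0.931 (0.886 to 0.978), and Acsl3, which activates fatty acids, at 2072, 2130 and 2079 CPM, a ratio of 1.0 (0.956 to 1.05). Among secreted factors, Ptn (pleiotrophin) stood at 1135, 1436 and 1320 CPM with a ratio of 1.16 (1.09 to 1.24), Tgfb2 at 454, 511 and 481 CPM with 1.06 (0.957 to 1.18), and the matrix protein Sparc at 1289, 1202 and 1104 CPM with 0.856 (0.803 to 0.913). Gpx4, which detoxifies lipid peroxides, stood at 886, 1032 and 1047 CPM, a ratio of 1.18 (1.1 to 1.27), and the chaperone Hspa8 at 796, 767 and 735 CPM, a ratio of 0.924 (0.852 to 1.0). The circadian nuclear receptor Rorb stood at 989, 989 and 878 CPM, a ratio of 0.888 (0.826 to 0.955), and Tcf7l2, the transcription factor of Wnt signalling, at 183, 154 and 168 CPM, a ratio of 0.92 (0.777 to 1.09).

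Cell cycle genes were sparse, and only 4 of the 14 cycle and kinetochore genes outside the rule reached 100 UMIs. Of these, the D cyclins Ccnd1 and Ccnd3 stood at 203, 262 and 259 CPM and at 204, 253 and 286 CPM, with ratios of 1.27 (1.1 to 1.48) and 1.4 (1.21 to 1.62). The inhibitor Cdkn1b (p27), which keeps Müller glia out of the cycle, stood at 301, 285 and 235 CPM, a ratio of 0.78 (0.679 to 0.894), and Cdkn1c (p57) at 47.9, 60.9 and 32.6 CPM, a ratio of 0.681 (0.47 to 0.981). These 4 ratios lay within 1.5-fold, that of Cdkn1c narrowly, since it was past 1.5-fold under 6 of 12 settings and 0.240 after thinning.

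The named genes that were lower in Old Müller glia included several of low level. Ptprz1, a receptor phosphatase of glia and progenitors, stood at 42.8, 33.9 and 14.8 CPM, a ratio of 0.345 (0.207 to 0.558), with UMIs in 49, 41 and 20 droplets. Galnt13, a glycosyltransferase that starts O-linked sugar chains, stood at 70.9, 42.7 and 28.3 CPM, a ratio of 0.399 (0.277 to 0.568), with UMIs in 75, 58 and 32 droplets. Omg, the oligodendrocyte-myelin glycoprotein, stood at 60.0, 38.5 and 28.9 CPM, a ratio of 0.482 (0.332 to 0.691). In these 3 genes the Adult value lay between the Young and the Old one.

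Cd24a, a surface sialoglycoprotein, was counted 59, 46 and 25 times, a ratio of 0.408 (0.245 to 0.662). Rgcc, a cell cycle regulator, had a ratio of 0.510 (0.361 to 0.713), the transporter Mfsd14b one of 0.450 (0.276 to 0.716), and the unannotated Gm26802 one of 0.511 (0.395 to 0.658). Gm26802 was also lower in other droplets, with a ratio of 0.451, whereas Galnt13 stood at a ratio of 1.02 and Mfsd14b at 0.975 there. Of the mitochondrially encoded genes, mt-Nd6, which is transcribed from the strand opposite to the other protein genes, stood at 120, 113 and 54.2 CPM, a ratio of 0.451 (0.346 to 0.584), and other droplets had a ratio of 0.660. It lies antisense to neighbouring transcripts and is given as a value only.

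Further named genes had large ratios in Adult over Young, several of them with similar ratios in Old. Klf4, an immediate early transcription factor, stood at 59.4, 14.6 and 33.2 CPM, a ratio of 0.246 (0.155 to 0.378) in Adult and 0.560 (0.393 to 0.791) in Old. The stress factor Atf3 had a ratio of 0.478 (0.339 to 0.667) in Adult and 0.652 (0.471 to 0.898) in Old, where it became 1.09 after thinning. Lrrfip1, a regulator of transcription, stood at 33.8, 15.1 and 15.4 CPM, with ratios of 0.446 (0.274 to 0.715) and 0.455 (0.271 to 0.745). Cyp1b1, a cytochrome that also acts on retinoids, stood at 41.5, 18.8 and 29.5 CPM, a ratio of 0.452 (0.292 to 0.689) in Adult. Utp14b, annotated as a ribosome biogenesis gene, stood at 604, 395 and 424 CPM, ratios of 0.654 (0.594 to 0.721) and 0.703 (0.636 to 0.776). G0s2, a lipase inhibitor, stood at 10.2, 37.5 and 24.6 CPM, a ratio of 3.67 (2.11 to 6.76) in Adult, which ran from 1.81 to 5.28 under 12 settings. Ndufa4l2, a hypoxia-inducible mitochondrial protein, stood at 9.58, 39.6 and 12.9 CPM, a ratio of 4.13 (2.36 to 7.74) in Adult, and 14 of its 21 Old UMIs lay in 1 droplet. Its Adult ratio ran from 1.77 to 5.48 under 11 settings. Endothelial droplets held 361, 357 and 355 CPM of Ndufa4l2, and the pericyte marker sum was likewise highest in the Adult Müller glia.

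A pair of abundant transcripts was lower in the Adult library both in Müller glia and in the other droplets. Gm42418, a locus that overlaps ribosomal RNA sequence, stood at 79109, 54628 and 73089 CPM in Müller glia and at 87465, 56345 and 68742 CPM in other droplets. Lars2, which contains a ribosomal RNA-like stretch, stood at 2197, 1179 and 1939 CPM, an Adult ratio of 0.537 (0.509 to 0.566) against 0.596 in other droplets. The metallothioneins Mt1, Mt2 and Mt3, which bind zinc and copper, had Old over Young ratios of 1.27 (1.19 to 1.35), 1.03 (0.902 to 1.18) and 1.44 (1.25 to 1.65). For Mt1, 470 of 1757 Young and 421 of 2310 Old UMIs lay in 1 droplet each.

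Some of the largest ratios rested on a single droplet and do not describe the cells as a group. Lcn2, an iron-binding acute-phase protein of gliosis, was counted 469 times in Young, 23 in Adult and 17 in Old, but 388 of the Young UMIs lay in 1 droplet that also held 52 Timp1 and 25 C3 UMIs and only 4 Glul and 7 Rlbp1 UMIs. The ratio of 0.0349 (0.0202 to 0.0565) became 0.131 (0.0629 to 0.247) without the leading droplet of each library, and Lcn2 had a UMI in only 9, 5 and 5 droplets in all. Igfbp5, an insulin-like growth factor-binding protein, had 183 of its 197 Young UMIs in 1 droplet, and its ratio of 0.0587 (0.0298 to 0.105) became 0.548 (0.199 to 1.40). Cst3 (cystatin C) had 719 of 1566 Young UMIs in 1 droplet, and its ratio of 0.464 (0.425 to 0.507) became 0.797 (0.720 to 0.882). All 92 UMIs of C1qa, a complement subunit of microglia, lay in 1 Young droplet. Ptgds, the prostaglandin D2 synthase, was the only lipid gene 1.5-fold lower in Old, at 149, 199 and 91.7 CPM and a ratio of 0.616 (0.498 to 0.760), which became 0.678 without the leading droplet and was then no longer 1.5-fold lower, and 182 of its 382 Adult UMIs lay in 1 droplet. In other droplets of the Old library Ptgds had a ratio of 8.63.

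In the Adult library, 222 of 231 UMIs of the neuropeptide precursor Scg2 lay in 1 droplet, as did 125 of 143 of Mgp, the matrix Gla protein, and 53 of 168 of Vtn, the adhesion protein vitronectin. In the Old library, 51 of 62 UMIs of Chgb (chromogranin B) and 38 of 43 of Cplx3 (complexin 3), both highest in bipolar droplets, lay in 1 droplet each, and their ratios of 4.60 (2.50 to 9.11) and 4.61 (2.21 to 10.7) became 1.51 (0.534 to 4.59) and 1.20 (0.258 to 6.05). Rcvrn, the photoreceptor protein recoverin, stood at 65.1, 172 and 158 CPM and Mir124a-1hg, the host transcript of a neuronal microRNA, at 13.4, 23.4 and 51.1 CPM. Rcvrn is far higher in rod droplets, at 4143, 4995 and 4835 CPM, and moved with the rod marker sum given above, whose part in its value was not tested. Mir124a-1hg stood at 585, 343 and 465 CPM in rod and at 404, 399 and 352 CPM in bipolar droplets. Over all genes, leaving out the leading droplet of each library for each gene gave 346 higher and 163 lower genes in Old over Young, with 26 and 15 of the original calls lost.

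**Figure D4:**
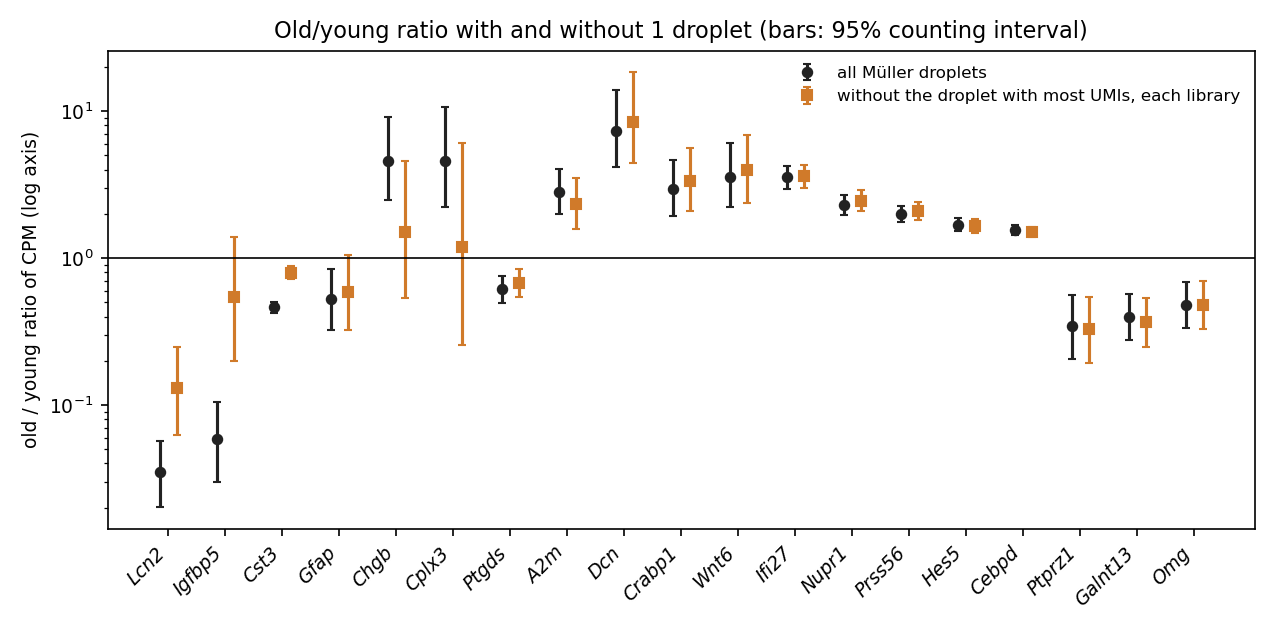
Old over Young ratio of CPM in Müller glia (log axis) for 19 genes, with all droplets (black) and without the droplet that held the most UMIs of that gene in each library (orange); bars are exact 95% counting intervals. Lcn2, Igfbp5, Cst3, Chgb and Cplx3 move toward 1, and Dcn, Wnt6, Ifi27, Nupr1, Prss56, Hes5 and Cebpd stay where they were.

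Müller glia differed among themselves in Aldh1a1. Aldh1a1, which is expressed in the dorsal retina, had a UMI in 94 of 170 Young, 130 of 206 Adult and 112 of 192 Old droplets, or 55.3% (47.5 to 62.9), 63.1% (56.1 to 69.7) and 58.3% (51.0 to 65.4). After thinning the shares were 35.4%, 38.3% and 39.8%, with overlapping intervals, and in bipolar droplets at most 0.571% had a UMI. Over the 3 libraries 336 of the 568 droplets, or 59.2%, carried Aldh1a1, and the shares below are to be read against this. Positive droplets were deeper, with medians of 11346.5, 10775 and 10429.5 UMIs against 7360, 6645 and 5477, so the levels below are given as CPM. A correlation between genes over single droplets shares this depth, and the split is a description with no test.

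Of the 6 other genes of the dorsal list, Tbx5 and Efnb2 followed Aldh1a1 most closely and Tbx2 did not. Tbx5, a dorsal T-box factor, was found in 71 droplets, of which 68 carried Aldh1a1. Efnb2, the dorsal ephrin-B2, was found in 152, of which 139 did, at 90.7, 94.7 and 95.3 CPM against 8.89, 12.6 and 5.97 CPM. Efnb1 (ephrin-B1) had ratios of 1.68, 2.32 and 2.27 for positive over negative droplets and Tbx2 of 1.13, 0.967 and 0.846. Tbx3 had 1.04, 2.32 and 5.82 on few UMIs, and Bmp4 was found in 5 droplets. Cyp26b1 was found in 83 droplets, of which 80 carried Aldh1a1, and Nr2f2, an orphan nuclear receptor, in 173, of which 154 did. Vax2, a ventral homeobox factor, stood at 6.98, 13.9 and 8.91 CPM in positive and 19.6, 18.0 and 35.8 CPM in negative droplets, and the interval of the ratio lay below 1 only in Old. Of the other ventral genes, Nr2f1 had ratios of 1.05, 0.954 and 0.916, and all 7 droplets with Aldh1a3 carried Aldh1a1. For the ventral receptors Ephb2 and Ephb3, 74.0% and 72.3% of droplets carried Aldh1a1, against 59.2% of all Müller glia. The intervals of their ratios included 1 in each library.

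Glul, which the rule did not use, stood at ratios of 1.09, 0.937 and 0.972 for positive over negative droplets. The rule markers Rlbp1 and Spc25 had ratios below 1 in each library, but the shallower negative droplets had to carry 5 markers to be included, so nothing is read from these values. Necab2, a neuronal calcium-binding protein, was higher, at 207, 340 and 363 CPM against 76.4, 64.6 and 81.6 CPM. The interferon-induced membrane protein Ifitm3 was higher as well, at 252, 371 and 265 CPM against 76.4, 82.6 and 116 CPM.

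**Figure D5:**
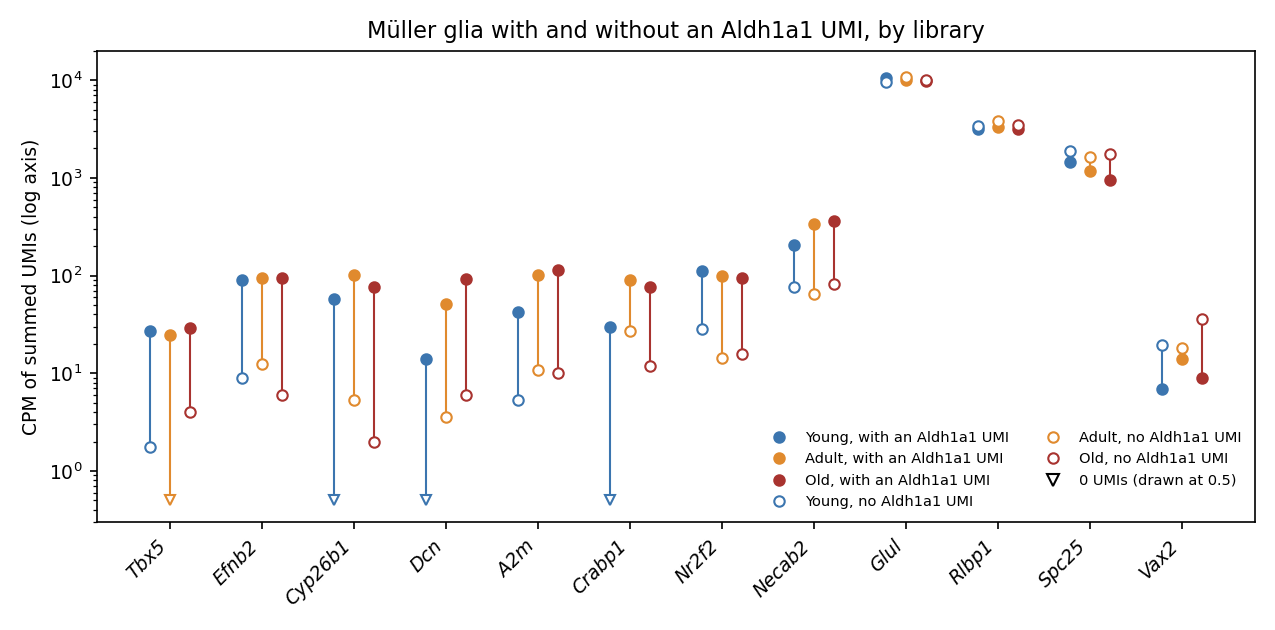
CPM of summed UMIs (log axis) for 12 genes in Müller glia with an Aldh1a1 UMI (filled) and without one (open) in the Young (blue), Adult (orange) and Old (red) library; triangles mark 0 UMIs and are drawn at 0.5 CPM. Tbx5, Efnb2, Cyp26b1, Dcn, A2m, Crabp1 and Nr2f2 are higher in droplets with Aldh1a1, Glul hardly differs, Vax2 is lower in the Old library, and Rlbp1 and Spc25 are rule markers shown as a description.

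The genes Dcn, A2m and Crabp1, with high age ratios, belonged mostly to the Aldh1a1-positive droplets: 73 of the 77 droplets with Dcn, 70 of the 79 with A2m and 70 of the 79 with Crabp1 carried Aldh1a1. The share over all Müller glia was 59.2%, and the droplets with Aldh1a1 were deeper. Within those droplets alone the Old over Young ratio was 6.64 (3.79 to 12.6) for Dcn, 2.68 (1.89 to 3.88) for A2m and 2.56 (1.67 to 4.02) for Crabp1, close to the ratios of 7.37, 2.81 and 2.96 over all Müller glia. Ifi27 was found on both sides, with ratios of 4.28 (3.40 to 5.44) with and 2.56 (1.92 to 3.43) without Aldh1a1, and Nupr1 with ratios of 2.11 (1.74 to 2.56) and 2.73 (2.08 to 3.63). Hes5 had 1.85 (1.61 to 2.14) and 1.60 (1.37 to 1.87). The Old over Young ratio of Cebpd, not its level, was larger on the negative side, at 2.03 (1.71 to 2.41) against 1.40 (1.29 to 1.52). In Adult over Young it was 1.54 (1.29 to 1.84) on the negative side against 0.913 (0.836 to 0.997).

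A second axis was given by Prss56, found in 28.8%, 36.9% and 32.8% of Müller glia and at most 0.571% of bipolar droplets. Droplets with and without Prss56 had similar median depths in Young (9166 and 9176 UMIs) but not in Old (10530 and 6928 UMIs). Of the 100 droplets with Wnt6, 52 carried Prss56, although Prss56 was present in 188 of all 568. Wnt6 stood at 23.8, 36.9 and 55.3 CPM in Prss56-positive and at 9.97, 11.2 and 47.4 CPM in negative droplets. The ratios were 2.39 (0.939 to 6.08), 3.30 (1.65 to 6.94) and 1.17 (0.730 to 1.84), so that only the Adult interval excluded 1. Nkd1, a Wnt feedback inhibitor, was higher with Prss56 in each library, at 201, 174 and 144 CPM against 85.2, 87.0 and 99.9 CPM, and the lysophosphatidic acid receptor Lpar1 stood at 60.6, 64.6 and 91.6 CPM against 29.0, 47.4 and 24.2 CPM, with an Adult interval that included 1 (0.910 to 2.04). Crabp1 was lower, at 0, 13.2 and 26.8 CPM against 27.2, 109 and 75.7 CPM.

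The levels of immediate early genes covered a wide range over single droplets. The summed level of the 18 listed genes, among them Fos, Jun, Egr1 and Btg2, which cells switch on within minutes of a stimulus, had a median of 10301, 9688 and 8735 CPM per droplet, and ran from 987, 970 and 705 CPM at the 10th percentile of droplets to 17051, 18108 and 19093 CPM at the 90th. The library sums of Fos (2292, 2152 and 2317 CPM) and Jun (2851, 2704 and 2473 CPM) differed little. Within a library the log2 levels (CPM plus 100) of Fos and Jun were correlated over the droplets (Pearson's r of 0.752, 0.713 and 0.780 over 170, 206 and 192 droplets), as were those of Fos and Egr1 (0.748, 0.756 and 0.719). The droplets of 1 library share their preparation, and the levels share droplet depth. Over the same droplets Fos and Glul had r of 0.00158, 0.0685 and 0.0857, too weak to read.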

How the data were processed

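Retinal cells of 3 pools of C57BL/6JRj mice were enriched for CD31 by autoMACS and sequenced as 10x Genomics 3′ v3.1 libraries, 1 per age. The authors aligned the reads to mm10 with Cell Ranger 6.1.2 and deposited filtered matrices of whole UMI counts, not normalized, for 32285 genes. From the deposited counts, droplets with 500 to 6000 genes and 1 to 20% mitochondrial UMIs were kept, and Müller glia were taken by the marker rule of the text. No deposited cell type annotation was used. UMIs were summed over the Müller glia of each library and expressed as CPM of that sum. Levels carry exact Poisson intervals, ratios exact conditional intervals and shares Clopper-Pearson intervals, all at 95%. These cover counting error only, and because each age is 1 library, no test between ages was made. Genes with at least 100 UMIs over the 3 libraries were ranked, and a 1.5-fold ratio was called higher or lower.

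Genes were named from the rule markers, the 15 genes of highest CPM outside mitochondrial and ribosomal protein genes, the 10 genes with the largest change in each direction and contrast, ranked by the interval bound nearest 1, and, from each of 23 gene lists, up to 4 members of highest CPM and any at 1.5-fold or beyond in Old over Young. Genes outside this rule, such as Prss56, C1qa, Stat3, Plscr2 and those of the Aldh1a1 and Prss56 splits, were chosen after their values were seen. Some genes that met the rule are not reported here. The members and lists were chosen with earlier results of these data known. Endothelial, rod and bipolar droplets were set by fixed markers and serve as a comparison. For shares of droplets with a UMI, each droplet was thinned at random to 2000 UMIs, which left out 6 Young, 10 Adult and 21 Old Müller glia. Doublets were called with Scrublet in scanpy 1.11.5 as an alternative only. It marked 0.467%, 0.456% and 0.701% of droplets, too few to be taken as working. Of the 32285 gene identifiers, 32158 were found in the GENCODE M21 annotation of GRCm38, which gave the gene coordinates. Promoter windows came from RefSeq on GRCm38.p6. Scripts used Python 3.11.15, numpy 2.4.6, scipy 1.17.1 and matplotlib 3.10.9, and were tested on simulated counts.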

Additional observations from a re-analysis of the deposited data

Results flagged for a closer look

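Several genes moved one way in Müller glia and the other way in all other droplets of the same libraries. With 1 library per age, none of these differences was tested, and the other droplets are a mixture of cell types. For Old over Young, the Müller ratio and the ratio in other droplets were 7.37 and 0.236 for Dcn, 1.69 and 0.544 for Hes5, and 2.02 and 0.875 for Vtn. The reverse pattern was found for Cd24a (0.408 and 1.27), Atf3 (0.652 and 1.45), Cst3 (0.464 and 1.21), Ptgds (0.616 and 8.63) and Lcn2 (0.0349 and 23.7). The Müller ratio of Atf3 became 1.09 after thinning, and that of Lcn2 1.26 with at least 4 Müller markers. For Cst3 it became 1.13 with the stricter droplet limits and 1.12 in droplets with Aldh1a1. Under those settings these genes moved the same way as in the other droplets.

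For Adult over Young the 2 ratios were 4.14 and 0.381 for Dcn, 1.51 and 0.528 for Hes5, 2.18 and 0.892 for Id1, 1.52 and 0.915 for Ifitm3, 3.43 and 0.774 for Vtn, 4.13 and 0.858 for Ndufa4l2, and 29.2 and 0.914 for Mgp. Lower values in Müller glia were found for Cd24a (0.636 and 1.37) and Lcn2 (0.0400 and 1.69). Of these genes, Lcn2, Cst3 and Mgp had 388 of 469, 719 of 1566 and 125 of 143 UMIs of 1 library in 1 droplet. Under other settings the Adult over Young ratio in Müller glia was as low as 1.69 for Vtn, 1.77 for Ndufa4l2 and 2.54 for Mgp. Hes5 stood at 7.26 CPM or less in the other droplets, so its ratio there rests on few UMIs.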

How the results depend on the processing

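Counts past 1.5-fold and list medians, except dorsal and ventral, were recomputed under alternative droplet limits, marker thresholds, scalings and UMI minimums. For 150 age ratios of named genes all but the UMI minimum was varied. The Müller share was recomputed with other droplet and marker limits, and shares of droplets with a UMI only after thinning. Ratios in endothelial droplets and between the sides of the Aldh1a1 and Prss56 splits were not recomputed. No paired analysis was possible because each age had 1 library and only replicate number 1. Among the age ratios of named genes, 1559 values lay inside the counting interval of the main ratio, which is wide for sparse genes. Another 205 lay outside it, and 21 changed direction. A change of direction was counted only where the main interval excluded 1. Among the shares of droplets with a UMI, 82 lay inside the main interval after thinning and 446 did not. With at most 1 endothelial marker, Müller glia made up 8.17%, 8.76% and 8.81% of droplets. The counts of genes past 1.5-fold depended most on the UMI minimum. Higher and lower genes in Old over Young numbered 709 and 415 with a minimum of 50 UMIs, 102 and 36 with 200, 1972 and 1632 with 1 UMI in each library, 982 and 798 after thinning, and 798 and 510 after subtracting a free RNA profile, and 282 were lower by the mean over droplets. In Adult over Young they numbered 520 and 465, 91 and 43, 1700 and 1700, 886 and 781, and 603 and 597 in the same order, with 281 lower by the mean over droplets. The free RNA setting left few Müller UMIs and is of little use here.

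The glutamate list median in Old over Young became -0.026 with at least 4 Müller markers. The metallothionein median became 0.60 with at most 1 endothelial marker, 0.25 after thinning and 0.50 without the leading droplet, and in Adult over Young -0.10, with 1000 to 6000 genes and 1 to 10% mitochondrial UMIs -0.53, and without the leading droplet -0.0064. The following gene ratios in Old over Young changed direction: after thinning Cyp26a1 (0.719), Atf3 (1.09), Hes1 (0.957) and Rgr (0.599); after free RNA subtraction Lars2 (1.38), B2m (0.260), Rgr (0) and Got1 (0); with at least 4 markers Lcn2 (1.26); with at least 6 Cplx3 (0.543) and Chgb (0.652); with the stricter droplet limits Cst3 (1.13), Cplx3 (0.534) and Chgb (0.850); in droplets with Aldh1a1 Cst3 (1.12), Cplx3 (0.447) and Chgb (0.813); and by the mean over droplets Gfap (1.06). In Adult over Young Cst3 became 1.19 with the stricter limits and 1.22 with Aldh1a1, and Cplx3 0.685 with the stricter limits. The cause of these changes was not tested. Scaling by the median of ratios moved the all-gene median to -0.00.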
